A study of Mus musculus with 6 samples.

Results

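MHC class II molecules carry peptides from engulfed and digested protein to the cell surface, where CD4+ helper T cells read them. The genes described here encode that machinery: the invariant chain Cd74, the classical alpha and beta chains (H2-Aa, H2-Ab1, H2-Eb1), the peptide-loading chains H2-DMa, H2-DMb1 and H2-DMb2, the loading modulators H2-Oa and H2-Ob, and the transactivator Ciita. They were chosen by gene symbol, with earlier results of the same libraries known. All 10 are in the deposited table of 33017 genes. Of these, 9 had enough counts to be tested, among 15904 tested genes, and H2-Oa was listed at 0 in every library.

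The series holds 6 libraries of poly-A selected RNA from mouse small intestine, 3 labelled model and 3 labelled control. The series title speaks of simulated microgravity and radiation and names a compound that counters them. Its design text sets 2 groups side by side to dissect what both factors do jointly. None of the 6 libraries carries a label for the compound. The exposure of each model library, the strain, sex and age of the mice, and the stretch of intestine taken are not given in the labels used here. Nothing in the labels ties the libraries of a group to separate mice, so a p-value here measures the spread between libraries, which may be technical. The tissue is bulk, so fewer cells that carry class II and less class II RNA per cell cannot be told apart.

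In a healthy small intestine, dendritic cells, macrophages and B cells carry class II at all times, and group 3 innate lymphoid cells and enterocytes can carry it too. Interferon gamma raises Ciita by a route that includes IRF1, and CIITA then acts on class II promoters through a complex of RFX, CREB and NF-Y proteins that sits on paired sequence elements called the X and Y boxes. In the endosome, cathepsins trim the invariant chain, the DM heterodimer exchanges its remnant for antigen peptide, and the DO heterodimer of H2-Oa and H2-Ob restrains DM, above all in B cells.

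The paired boxes can be read in the promoters of the family, and they are shown because the family is known for them. Whether the boxes bear on the values below was not tested. RefSeq promoter sequences (GRCm38.p6, a different build from the GRCm39 of the counts) were at hand for 7 of the 10 genes. The letters GNAAC, the core of the X box, were searched on both strands in the 250 bases before each start, followed after 25 to 28 bases on the same strand by ATTGG, the Y box that NF-Y binds as CCAAT. The letters and the spacing were chosen after the sequences had been read. Of the 7 genes, 5 held the pair, against 0.588% of all 32851 promoter windows. The capitals mark the X core and the Y box, and each line runs 5′ to 3′ on the strand of the gene.
H2-Eb1: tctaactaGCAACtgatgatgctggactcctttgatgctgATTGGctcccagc
H2-Aa: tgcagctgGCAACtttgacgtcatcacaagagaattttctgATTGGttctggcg
H2-DMb1: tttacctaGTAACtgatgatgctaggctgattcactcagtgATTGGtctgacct
H2-DMb2: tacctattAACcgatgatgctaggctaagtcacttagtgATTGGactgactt
H2-Ob: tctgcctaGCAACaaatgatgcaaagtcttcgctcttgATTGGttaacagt
H2-Oa: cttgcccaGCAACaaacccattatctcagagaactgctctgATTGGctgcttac

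All lie on chromosome 17 in GRCm38.p6. H2-Aa reads from the minus strand, at chr17:34287859-34287912. The others read from the plus strand: H2-Eb1 at chr17:34305768-34305820, H2-DMb1 at chr17:34153089-34153142, H2-DMb2 at chr17:34145120-34145171, H2-Ob at chr17:34238810-34238860 and H2-Oa at chr17:34092295-34092348. H2-DMb2 holds only the 3 letters AAC of the X core, a looser pattern that 2.09% of all promoter windows hold. The pair ended between 39 and 57 bases before the start in 5 of the 6 genes and 86 bases before it in H2-DMb2. For H2-DMa the pair was not in its promoter windows, from which nothing is drawn about what binds there.

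The 6 libraries differed in ways that bear on these genes. Library totals were 35007515 to 43664883 counts in the model group and 36158165 to 45285564 counts in the control group. Enterocyte markers summed to 22622 CPM or more in every library (CPM are a gene's counts scaled to the size of its library, here after TMM scaling). Control 3 stood apart in intestinal position: its proximal segment genes had a median log2 deviation of -5.79 from their means, against 0.71 to 1.73 in the other libraries, and the ileal bile acid transporter gene Slc10a2 measured 648 CPM there and at most 4.60 CPM elsewhere. Ileal segment markers summed to 3903, 2639 and 5386 CPM in model 1, 2 and 3, against 1619, 1335 and 9394 CPM in control 1, 2 and 3. The part of intestinal position in the class II difference was not tested. Model 3 carried pancreatic transcripts, with Ctrb1 at 1893 CPM against at most 4.12 CPM elsewhere. Model 1 was poor in long transcripts: genes of 8 kb or longer had a median deviation of -0.41 there, against 0.00077 to 0.25 in the other libraries. It was rich in short ones: genes under 2 kb had a median deviation of 0.44 there, against -0.19 to 0.076 in the other libraries. The annotated exons of Cd74, H2-Eb1, H2-DMb1 and H2-DMb2 add up to less than 2 kb each. The part of transcript length in their model 1 values was not tested. The class II fold changes below are therefore also given without control 3, model 3 or model 1.

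The most abundant class II genes were lower in the model libraries by about the same proportion. Cd74 measured 762, 848 and 728 CPM in model 1, 2 and 3, against 949, 1342 and 1162 CPM in control 1, 2 and 3. All 3 model values lay below all 3 control values. The log2 fold change of Cd74, model over control, was -0.56 (SE 0.26, edgeR quasi-likelihood fit), and the model mean was 67.7% of the control mean. H2-Ab1, the beta chain of the I-A molecule, measured 351, 356 and 294 CPM in the model libraries, against 431, 575 and 389 CPM in the control libraries, a log2 fold change of -0.48 (SE 0.24). Its alpha partner H2-Aa measured 204, 208 and 201 CPM in the model libraries, against 226, 385 and 324 CPM in the control libraries (-0.61, SE 0.25). The model values of H2-Aa were close to each other, whereas control 1 lay much nearer to them than to the other control libraries. H2-Eb1, the beta chain of the I-E molecule, measured 184, 215 and 190 CPM in the model libraries, against 240, 316 and 268 CPM in the control libraries (-0.49, SE 0.21). These 4 genes did not overlap between the groups, and 6.33% of all tested genes were likewise lower in every model library.

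**Figure D1:**
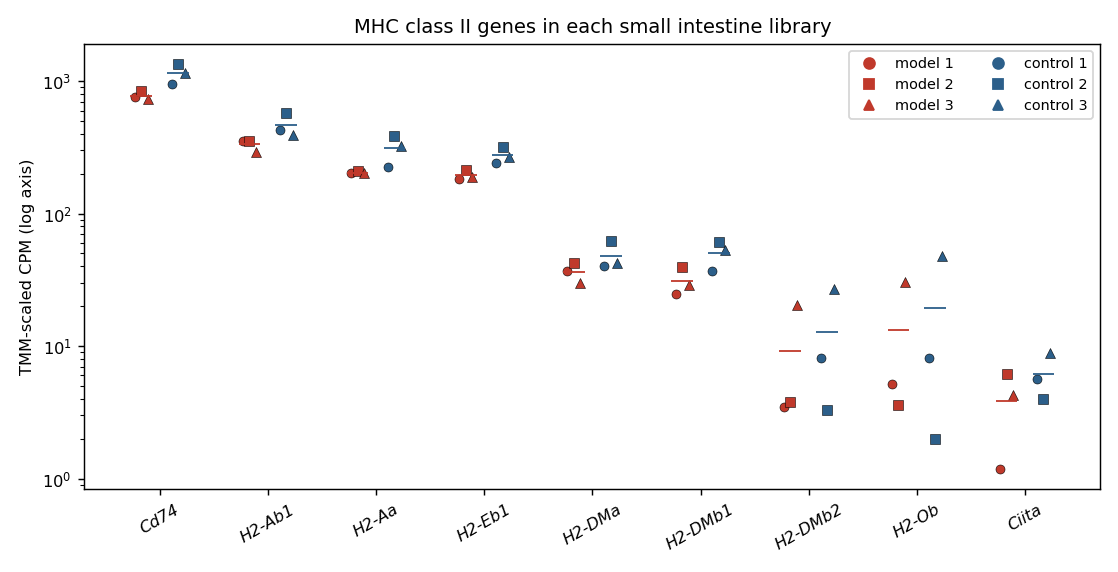
TMM-scaled CPM (log axis) of the 9 tested class II genes in each library, model in red to the left and control in blue to the right, with marker shapes for library 1, 2 and 3 and lines for group means (n = 3 each). The 4 genes on the left do not overlap between the groups, while H2-DMb2 and H2-Ob are high in library 3 of both groups. Of all tested genes, 6.33% were lower in every model library.

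The DM genes, which load peptide, had the same direction with overlap at the edges. H2-DMa, the alpha chain, measured 36.9, 42.5 and 29.9 CPM in the model libraries, against 40.4, 62.2 and 42.0 CPM in the control libraries, so that model 2 lay above control 1 and control 3. Its log2 fold change was -0.40 (SE 0.24). H2-DMb1, the main beta chain, measured 24.6, 39.8 and 28.8 CPM in the model libraries, against 37.2, 61.0 and 52.7 CPM in the control libraries (-0.69, SE 0.27). Here only model 2 reached above control 1. H2-DMb1 and H2-DMb2 are near copies, and the handling of reads that match both is not given in the sources used here, so the split between them is uncertain.

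None of these differences passed the test over all genes. edgeR's quasi-likelihood test with Benjamini-Hochberg adjustment gave the 9 tested members adjusted p-values of 0.851 to 0.919, and it called 0 of 15904 genes at 0.05 (0%), with 765 genes at an unadjusted p under 0.05. DESeq2's Wald test called 25 genes (0.157%), and 0 of the 9 members. The members were chosen with this contrast known, so the counts that follow are descriptions with no test. All 9 tested members had a log2 fold change below 0, between -0.69 and -0.40, as had 51.8% of all tested genes. The median of the 9 was -0.56, against -0.018 over all tested genes. For 4 of the 9, every model library lay below every control library, as for 6.33% of all tested genes. At an unadjusted p under 0.05 there were 3 lower members (H2-Aa, H2-Eb1 and H2-DMb1), against 2.99% of all tested genes, and 0 higher members, against 1.82%. That count of lower members was 1 with RLE scaling, 5 with upper quartile scaling and 6 with libraries scaled by size alone. Over all 15904 tested genes, 426, 623 and 823 were lower at such a p under these scalings, against 475 in the main fit.

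**Figure D2:**
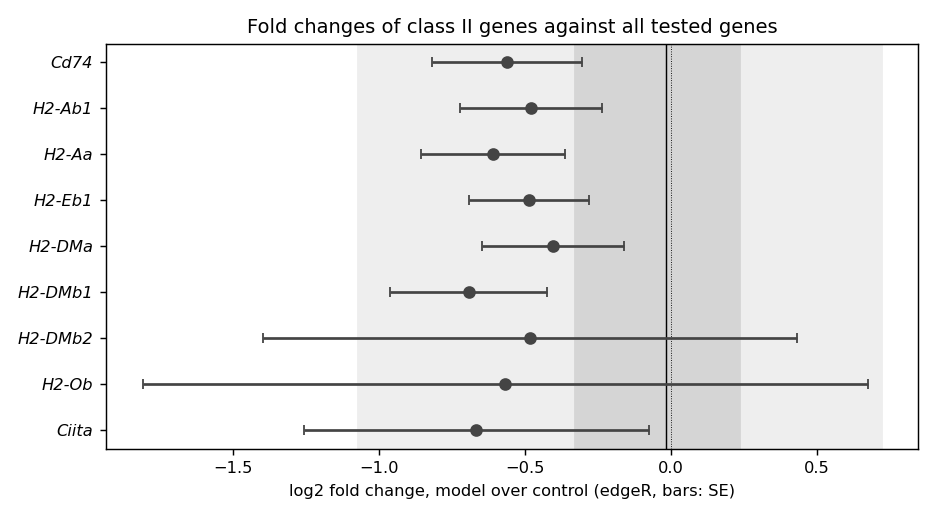
Log2 fold change (model over control, edgeR) of the 9 tested class II genes as points with SE bars, on grey bands that hold the middle 50% and 90% of all 15904 tested genes and a line at their median. All points lie between -0.69 and -0.40, and the bars of H2-DMb2 and H2-Ob are the widest.

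The size of the difference in the abundant genes was much the same without the libraries that stood apart. For H2-Ab1 and H2-DMa it was smaller without model 3. Without control 3, which stood apart in segment markers, the log2 fold change was -0.54 for Cd74, -0.58 for H2-Ab1, -0.56 for H2-Aa and -0.49 for H2-Eb1. Without model 3 it was -0.51 for Cd74, -0.39 for H2-Ab1, -0.59 for H2-Aa, -0.46 for H2-Eb1 and -0.27 for H2-DMa. Without control 3 and model 3 together it was -0.51 for Cd74, -0.51 for H2-Ab1, -0.57 for H2-Aa and -0.48 for H2-Eb1. Without model 1 it was -0.55 for Cd74, -0.52 for H2-Ab1, -0.61 for H2-Aa and -0.44 for H2-Eb1. Control 2, the highest library for these genes and for both H2-DMa and H2-DMb1, carried more weight. Without it the log2 fold change was -0.42 for Cd74, -0.28 for H2-Ab1, -0.41 for H2-Aa, -0.36 for H2-Eb1 and -0.16 for H2-DMa. No member had an unadjusted p under 0.05 without model 1, model 3, control 2 or control 3.

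Within a library H2-Eb1 and H2-Aa kept their proportions to Cd74, and other ratios between class II genes varied more. Levels per length are CPM per kb of all annotated exons of a gene joined, not of a single transcript. On this scale, H2-Eb1 stood at 20.8%, 21.8% and 22.5% of Cd74 in the model libraries and at 21.9%, 20.3% and 19.9% in the control libraries. H2-Aa stood at 11.8%, 10.9% and 12.2% of Cd74 in the model libraries, against 10.5%, 12.7% and 12.3% in the control libraries. The highest of the 6 ratios was 1.13 times the lowest for H2-Eb1 and 1.20 times for H2-Aa, whereas the level of Cd74 itself spanned 1.84-fold over the libraries. H2-Ab1 stood at 30.1%, 27.4% and 26.4% of Cd74 in the model libraries, against 29.7%, 28.0% and 21.9% in the control libraries. The lowest of these ratios was that of control 3. H2-Aa ran from 35.4% to 56.3% of H2-Ab1 over the 6 libraries, a 1.59-fold span. The ratio of H2-DMb1 to H2-DMa spanned 1.88-fold. The groups overlapped for all of these ratios.

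On that scale per length the order of levels was Cd74, H2-Ab1, H2-Eb1, H2-Aa, H2-DMb1, H2-DMa, H2-DMb2, H2-Ob and Ciita. Cd74 averaged 575 CPM per kb over the 6 libraries, H2-Ab1 156, H2-Eb1 121 and H2-Aa 67.9 CPM per kb. H2-DMb1 averaged 24.2, H2-DMa 12.3, H2-DMb2 6.31, H2-Ob 3.03 and Ciita 0.525 CPM per kb. Each of the first 5 genes was above the next in the order in all 6 libraries. H2-DMa was above H2-DMb2 in 4 of 6 libraries and H2-Ob above Ciita in 5 of 6, so those neighbours were not set apart by their levels. H2-DMb2 was above H2-Ob in all 6 libraries on this scale. The order depends on the annotated lengths: by CPM alone H2-Aa averaged 258 CPM and H2-Eb1 236 CPM.

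H2-Ob and H2-DMb2 followed another pattern: they were high in library 3 of both groups. H2-Ob, the beta chain of DO, measured 5.19, 3.61 and 30.6 CPM in the model libraries, against 8.11, 1.98 and 48.3 CPM in the control libraries. H2-DMb2 measured 3.50, 3.79 and 20.3 CPM in the model libraries, against 8.11, 3.29 and 27.2 CPM in the control libraries. The highest library exceeded the lowest by 24.4-fold for H2-Ob and by 8.27-fold for H2-DMb2, and the groups overlapped for both. Their log2 fold changes were -0.57 (SE 1.24) for H2-Ob and -0.48 (SE 0.92) for H2-DMb2, and both turned positive without control 3, at 1.38 and 0.70. H2-Eb2, a class II beta chain gene outside the 10, had the same shape, with 1.77, 1.66 and 15.3 CPM in the model libraries and 3.05, 0.748 and 16.7 CPM in the control libraries. Its promoter also held the X and Y pair.

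B cell markers moved with these 3 genes. Of 17 B cell markers 16 were tested, and all 16 had log2 fold changes below 0, with a median of -0.79. Their summed level was 64.6, 82.8 and 393 CPM in the model libraries, against 110, 64.7 and 626 CPM in the control libraries. Ighm, the heavy chain gene of immunoglobulin M, which plasma cells also make, measured 34.9, 42.8 and 119 CPM in the model libraries, against 37.8, 34.7 and 159 CPM in the control libraries. Ms4a1, a defining B cell gene, was listed at 0 in all libraries. Without control 3 the direction of the list turned, with 15 of 16 markers above 0 and a median of 1.32. Without model 3 all 16 were below 0, with a median of -3.38. Without control 3 and model 3 together 13 of 15 tested markers were below 0, with a median of -1.16. H2-DMb2 stayed between 4.34% and 7.41% of the summed B cell markers over the 6 libraries, H2-Ob between 3.06% and 8.04%, and H2-Eb2 between 1.16% and 3.90%. Cd74 ranged from 185% to 2074% of that sum, so its level did not move with B cell markers from library to library. In model 3 and control 3, where the B cell markers were highest, Cd74 measured 728 and 1162 CPM. The part of B cells in the levels of H2-Ob, H2-DMb2 and H2-Eb2 was not tested.

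**Figure D3:**
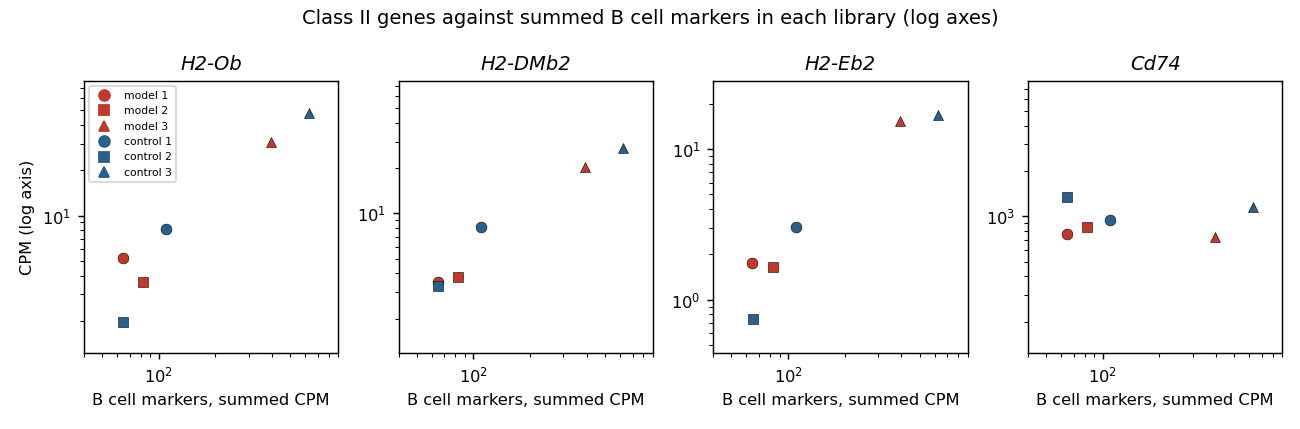
Level of H2-Ob, H2-DMb2, H2-Eb2 and Cd74 (CPM, log axis of the same span in each panel) against the summed CPM of 17 B cell markers (log axis) in each library, model in red and control in blue. The first 3 genes are highest in model 3 and control 3, where the B cell markers sum to 393 and 626 CPM, while Cd74 is not.

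The transactivator gene Ciita was low and did not track the genes it acts on. It measured 1.18, 6.12 and 4.27 CPM in the model libraries, from 34, 270 and 150 counts, against 5.65, 3.96 and 8.83 CPM in the control libraries, from 271, 148 and 372 counts. Model 2 lay above control 1 and control 2 for Ciita although it lay below every control library for Cd74. Control 2, the highest library for Cd74, was the lowest control library for Ciita. The log2 fold change of Ciita was -0.67 (SE 0.59). It was -0.24 without model 1, -0.30 without control 3 and -1.16 without model 2. As a share of Cd74 per length, Ciita spanned 4.92-fold over the libraries. Rfx5, a subunit of the RFX complex, was also lowest in model 1, with 0.692, 7.37 and 4.87 CPM in the model libraries against 8.68, 3.82 and 6.20 CPM in the control libraries. The annotated exons of Ciita add up to 9.54 kb, in the length class that was low in model 1. The part of transcript length in its level there was not tested.

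**Figure D4:**
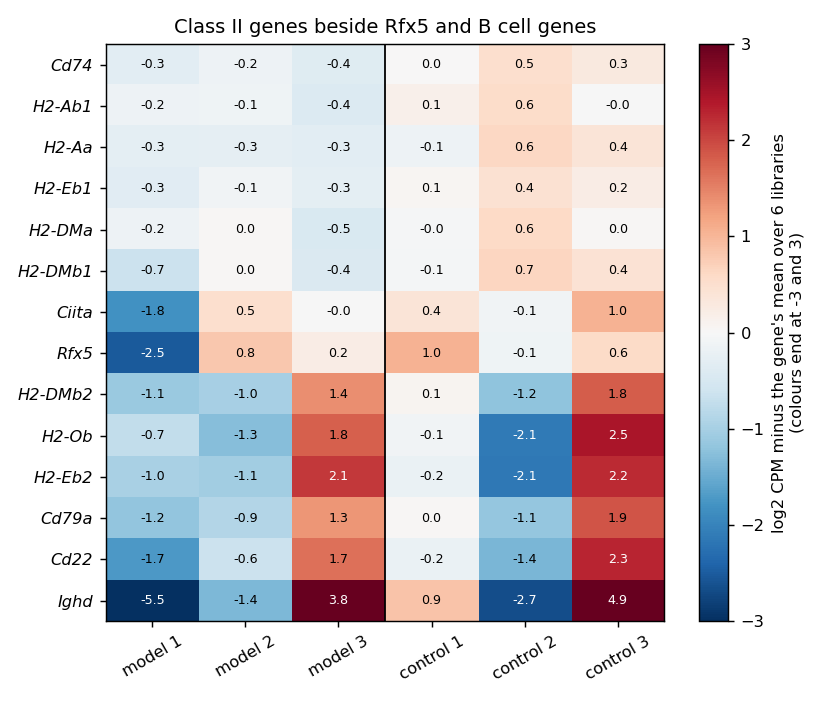
Deviation of log2 CPM from the mean of each gene over the 6 libraries (colours from -3 to 3, numbers in the cells), for class II genes, Rfx5 and B cell genes, with model libraries to the left of the line and control libraries to the right. The first 6 rows each have their lowest library in the model group, Ciita and Rfx5 are lowest in model 1, and the lower rows are highest in model 3 and control 3.

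H2-Oa, the alpha chain of DO, had 0 counts in all 6 libraries although H2-Ob, its partner, was measured and its promoter holds the X and Y pair. The same table lists B2m, the light chain of class I molecules, and Fabp2, an enterocyte lipid binding protein, at 0 in every library. The value of H2-Oa is therefore not read as absence of its transcript. H2-Ea, the alpha chain of I-E, had at most 4 counts in a library, against 5313 counts or more for its beta partner H2-Eb1. In some laboratory strains of mouse, C57BL/6 among them, H2-Ea is a null allele.

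The rest of the pathway was read from gene lists chosen with earlier results known, none of whose genes passed the test. Genes of the complex at the X and Y boxes had 4 of 10 members with fold changes above 0 and 6 below, with a median log2 fold change of -0.050. Without model 1 there were 8 above 0 and 2 below, with a median of 0.054, and with libraries scaled by size alone 1 above and 9 below, with a median of -0.22. Nfyb, a subunit of NF-Y, had 0.20 (SE 0.18) on the log2 scale, and the co-activator genes Crebbp and Ep300 had -0.098 (SE 0.31) and -0.085 (SE 0.38). The route from interferon gamma to Ciita had 10 of 11 tested members above 0, with a median of 0.13. Irf1, which binds an inducible Ciita promoter, measured 259, 301 and 172 CPM in the model libraries, against 180, 203 and 149 CPM in the control libraries (log2 fold change 0.46, SE 0.27). Ifngr1, a receptor chain, had 0.38 (SE 0.23), and Ifng itself was too low to be tested, at 0.386 CPM or less in every library. With libraries scaled by size alone, which shifted the median of all tested genes to -0.21, this list turned to 3 of 11 above 0 and a median of -0.061. Under that scaling all 9 class II members stayed below 0, with a median of -0.75.

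Other genes that interferon gamma induces had 12 of 15 tested members above 0 and a median of 0.18, and 8 of 15 with scaling by size alone. Tap1, which carries peptides to class I molecules, measured 98.0, 199 and 100 CPM in the model libraries, against 141, 154 and 79.4 CPM in the control libraries, with a log2 fold change of 0.086 (SE 0.37). The chemokine gene Cxcl9 stood at 37.8 CPM in model 2 and at 9.32 to 12.0 CPM in the other 5 libraries. Without model 2 this list turned, with 4 of 15 above 0 and a median of -0.34. The class I heavy chain gene H2-K1 measured 3188, 2111 and 1799 CPM in the model libraries, against 1959, 2125 and 1083 CPM in the control libraries (0.46, SE 0.38). H2-K1 thus had the opposite sign to the class II genes, with groups that overlapped.

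Endosomal enzymes that prepare peptides and cut the invariant chain lay on the other side of 0 from the class II genes. All 11 tested members had log2 fold changes above 0, with a median of 0.40, and 3 of them (Ctsz, Ctsl and Ctsd) had all model values above all control values, as had 4.73% of all tested genes. Ctss, the cathepsin that makes the last cuts in the invariant chain, measured 307, 170 and 164 CPM in the model libraries, against 129, 163 and 165 CPM in the control libraries. Model 1 was the high library, and the groups overlapped (log2 fold change 0.49, SE 0.29). Ctsz, a carboxypeptidase, measured 437, 319 and 286 CPM in the model libraries, against 238, 253 and 133 CPM in the control libraries (0.74, SE 0.31). Ifi30, the thiol reductase that opens disulfide bonds of antigens, had 0.55 (SE 0.39), and Lgmn, an asparagine-specific protease, had 0.41 (SE 0.31). The median was 0.17 without model 1, with all 11 still above 0. It was also 0.17 with libraries scaled by size alone, with 9 of 11 above 0.

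**Figure D5:**
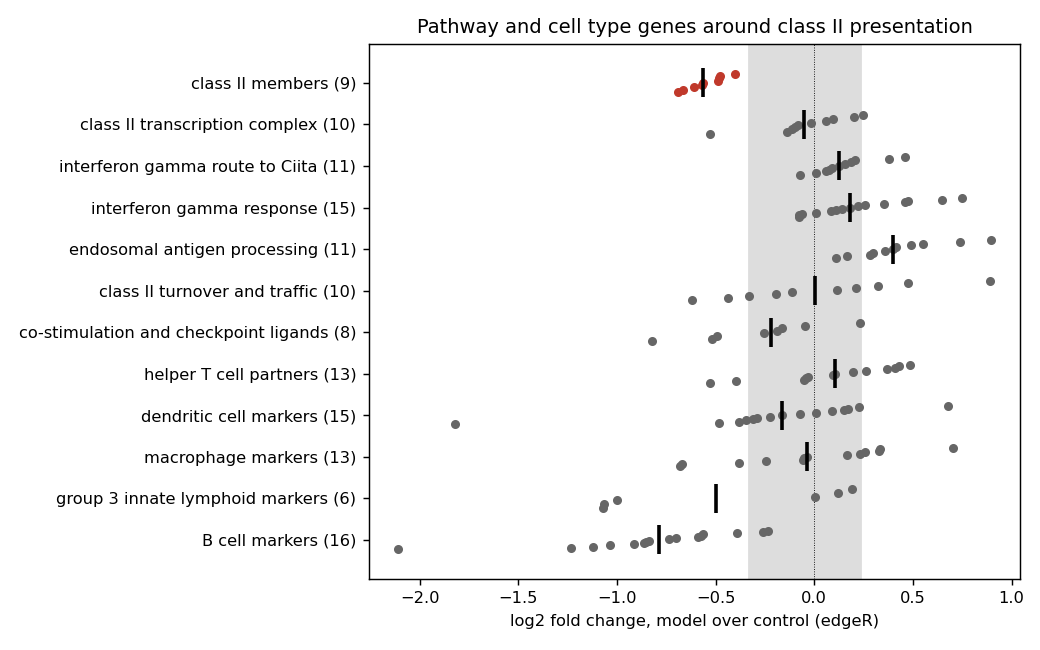
Log2 fold changes (model over control, edgeR) of the tested genes of each list, with the number tested in brackets, black bars at list medians and a grey band for the middle 50% of all tested genes. The class II members have a median of -0.56, the endosomal processing genes 0.40 and the B cell markers -0.79.

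Surface turnover genes showed no common direction, and the direction of partners at the synapse depended on the libraries and the scaling. Turnover and traffic genes had 5 of 10 members above 0, with a median of 0.0026. Marchf1, the ubiquitin ligase that removes class II from the surface, was highest in model 3 and control 3, at 11.9 and 22.1 CPM (log2 fold change -0.62, SE 0.57). Co-stimulatory and checkpoint ligands had 7 of 8 tested members below 0, with a median of -0.22, and without control 3 they had 7 of 8 above 0. Among genes of the responding T cell, 8 of 13 tested were above 0, with a median of 0.10, and 5 of 13 with scaling by size alone. Without control 3 all 13 were above 0, with a median of 0.34. Lck, the kinase of the CD4 and CD8 co-receptors, measured 29.6, 32.3 and 28.9 CPM in the model libraries, against 22.5, 22.2 and 23.6 CPM in the control libraries (0.41, SE 0.17). Cd4, the co-receptor that binds class II, overlapped between the groups, with a log2 fold change of 0.10 (SE 0.46).

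Markers of the other cells that carry class II lay on both sides of 0. Dendritic cell markers had 9 of 15 members below 0 and a median of -0.16. With upper quartile scaling 11 of 15 were below 0, with a median of -0.28, and with scaling by size alone 13 of 15, with a median of -0.40. Their summed level was 175, 350 and 276 CPM in the model libraries, against 325, 211 and 346 CPM in the control libraries. Control 2, which was highest for Cd74, was thus the lowest control library for dendritic cell markers. Itgax, the CD11c integrin, had a log2 fold change of -0.31 (SE 0.34), Clec9a of conventional type 1 dendritic cells had 0.68 (SE 0.32), and Siglech of plasmacytoid dendritic cells had -1.82 (SE 0.64). Macrophage markers had 7 of 13 below 0 and a median of -0.037, with a summed level of 585, 619 and 746 CPM in the model libraries and 621, 433 and 530 CPM in the control libraries. Mertk, a receptor that helps to clear dying cells, was the most abundant of them in all libraries but control 3, at 274, 260 and 395 CPM in the model libraries, against 223, 233 and 116 CPM in the control libraries (log2 fold change 0.70, SE 0.33). Adgre1, which encodes the macrophage antigen F4/80, had -0.68 (SE 0.32). Without control 3 the list had 9 of 13 above 0 and a median of 0.28, and without control 2 it had 4 of 13 above 0 and a median of -0.21.

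Group 3 innate lymphoid markers had 3 of 6 tested members below 0, with a median of -0.50, and 2 of them were lower in every model library, against 6.33% of all tested genes. With scaling by size alone all 6 were below 0. Kit, one of these 2 and shared with mast cells and interstitial pacemaker cells, measured 11.3, 15.3 and 20.8 CPM in the model libraries, against 21.3, 24.9 and 53.3 CPM in the control libraries (log2 fold change -1.07, SE 0.40). Il7r, the interleukin receptor gene of these and other lymphoid cells, overlapped (0.12, SE 0.43), and Cxcr6 was listed at 0. The list median was 0.013 without control 3 and 0.18 without model 1. Among enterocyte markers, 8 of 11 tested were above 0, with a median of 0.062 (5 of 11 with scaling by size alone), and Epcam measured 2151, 1208 and 1262 CPM in the model libraries, against 1275, 1527 and 1622 CPM in the control libraries. The part of any of these cell types in the class II difference was not tested.

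Markers of smooth muscle, the contractile layer of the gut wall, had the same direction as the class II genes. All 6 had log2 fold changes below 0, with a median of -0.73. Their summed level was 1138, 855 and 863 CPM in the model libraries, against 1138, 1728 and 1946 CPM in the control libraries, so that model 1 and control 1 were level. Myh11, the smooth muscle myosin heavy chain gene, measured 294, 379 and 465 CPM in the model libraries, against 536, 748 and 842 CPM in the control libraries (log2 fold change -0.90, SE 0.29). It was the 1 gene of the 6 that was lower in every model library, as were 6.33% of all tested genes. Myh11 was also the 1 with an unadjusted p under 0.05, as were 2.99% of all tested genes in the lower direction. With scaling by size alone 5 of the 6 had such a p, with a median of -0.99, as had 823 of 15904 genes in the lower direction. Without model 1 it was again 5 of the 6, with a median of -0.98, and 413 of 16528 genes in the lower direction. The median was -0.47 without control 3 and -0.29 without control 3 and model 3 together, with 5 of 6 below 0 in both. The part of smooth muscle content in the class II difference was not tested.

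Epithelial genes that respond to microbes, a setting in which enterocytes can carry class II, were high in control 3. All 8 tested of the 12 listed had log2 fold changes below 0, with a median of -2.12. Their summed level was 889.7, 6519.6 and 1963 CPM in the model libraries, against 1383, 1346 and 20871 CPM in the control libraries. Reg3g, an antibacterial lectin gene, measured 379, 2275 and 526 CPM in the model libraries, against 583, 579 and 7516 CPM in the control libraries (-1.45, SE 1.15). Without control 3 the list turned, with 6 of 8 above 0 and a median of 1.13. The log2 fold change of Cd74 was -0.54 without control 3, against -0.56 with it, and model 2, the next highest library for this list, stayed in both. The part of a response to microbes in the class II difference was not tested.

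Outside the family, the genes whose library pattern was nearest to that of Cd74 were found by the mean absolute difference of centred log2 CPM over the 6 libraries, among 9329 other tested genes with a mean of at least 10 CPM. The nearest 8 were Fam83d, Usp46, Speg, Ccl28, Hacd1, Pdlim3, Pam and Dis3l, at distances of 0.057 to 0.12. Within the family, H2-Eb1 was at a distance of 0.059 from Cd74, with 1 other gene nearer, H2-Aa at 0.088 with 3 nearer and H2-Ab1 at 0.12 with 8 nearer. H2-DMa was at 0.14 with 25 nearer and H2-DMb1 at 0.16 with 57 nearer. Ciita, at 0.71, H2-DMb2, at 1.13, and H2-Ob, at 1.44, were farther from Cd74 than 93.2%, 97.9% and 98.8% of those genes. Ccl28, an epithelial chemokine that attracts antibody-secreting cells, measured 77.2, 101 and 67.0 CPM in the model libraries, against 86.4, 128 and 113 CPM in the control libraries. Its groups overlapped. The others of the 8 were lower in every model library, as were 6.33% of all tested genes. They were picked by nearness to Cd74, which had that pattern too. With 6 libraries that share depth and composition effects, such distances describe these libraries only.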

How the data were processed

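Poly-A selected RNA of mouse small intestine was sequenced in 6 libraries, per the labels' protocols. The authors deposited raw read counts by gene symbol and library in 1 table, made with FastQC, Trimmomatic, STAR and featureCounts on GRCm39, per the submitters' processing notes. No version, annotation, strand or multi-mapping setting is given in the sources used here. Each of the 6 columns was matched to a sample by its library name, with 0 left over.

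Genes were kept by edgeR's filterByExpr and scaled by TMM. Group, as the only term, was tested by quasi-likelihood in edgeR with robust dispersion (R 4.3.3, edgeR 4.0.16), with Benjamini-Hochberg adjustment over all tested genes at 0.05. The same fit was run on simulated counts with larger planted changes than those of the class II genes. That run does not show how the fit performs on differences of this size. An SE is the size of the log2 fold change over the root of its F value. The common biological coefficient of variation came to 40.7%. Deviations use log2 CPM with a prior count of 2, except those of Rfx5, H2-Eb2 and B cell genes in the heat map, which use log2 of CPM plus 0.05. Exon lengths are from GENCODE M21 (GRCm38), matched by symbol. Counts of libraries within a group differed by a chi-square per degree of freedom of at least 115, so none was treated as a duplicate.

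Members, gene lists and tests were chosen with earlier results of these data known. Named are all members, the 3 most abundant genes and the 2 with the smallest p of each list where the text turns on them, and the 8 genes nearest to Cd74. Ctss, Ctsl, Ctsd, Ifi30, Lgmn, Rfx5, Marchf1, Il7r, Epcam, Ifng, H2-Ea and genes listed at 0 are named for their role, with values seen. Some genes of the lists are not reported here by name. Alternatives were other scalings, filters and dispersion, DESeq2 1.42.0, limma-voom (limma 3.58.1), the replicate number as a block and libraries left out.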

Additional observations from a re-analysis of the deposited data

How the results depend on the processing

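The median log2 fold change of the 9 tested class II genes was -0.56. It stayed below 0 under each of the 16 alternatives, from -0.75 with libraries scaled by size alone to -0.42 without control 2, and between -0.72 and -0.42 with 1 library left out. Scaling by size alone moved the median of all genes from -0.018 to -0.21, so the difference between members and all genes changed little. With 1 library left out, between 4 and 6 members were lower in every model library, against 4 with all libraries, and the share of all genes that did so was 8.26% to 14.2%, against 6.33%. The 6 came without model 2, where that share was 12.2%. edgeR and limma-voom called 0 genes under each alternative, and DESeq2 called 25, none of them a class II gene. With 1 library left out, H2-DMb2 ranged from -1.81 (without model 3) to 0.70 (without control 3) and H2-Ob from -2.14 (without model 3) to 1.38 (without control 3), and the cause was not tested. The other 7 members kept their direction throughout. Libraries of the same number in both groups share only a number: the correlations of their deviations from the group means were -0.15, -0.27 and 0.31. With the replicate number as a block, 0 genes were called, the members' median was -0.48 and 1 member had an unadjusted p under 0.05, against 3 without it. The SEs of 0.21 to 0.27 on the 6 abundant genes set how small a difference 3 libraries a group can show, and reads shared between near copies limit H2-DMb1 and H2-DMb2.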
